A study of Homo sapiens with 4 samples.

Results

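Heat shock proteins and their DNAJ partners were described in HT1080 cells, a human fibrosarcoma line, that lacked KDAC8 (also called HDAC8), a lysine deacetylase. The genes were chosen by name in the deposited count table: every HSPA, HSPB, DNAJA, DNAJB and DNAJC symbol with a number, together with 15 named chaperones, co-chaperones and heat shock factors. The rule matched 81 of 60675 rows. All 4 libraries, replicates 1 to 4, carried the same KDAC8 knockout genotype in the same line, grown in MEM with 10% fetal bovine serum at 37 °C, and no agent was named. Total RNA was depleted of ribosomal RNA and sequenced. The labels gave neither the guide nor the clone, and unedited HT1080 cells were not analysed here, so the values describe knockout cells and measure no effect of the knockout. Nothing stated that the 4 libraries came from separate cultures, and the p-values below therefore capture spread among these 4 libraries alone, which may be technical.

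HSP70 proteins bind exposed hydrophobic stretches of unfolded proteins and release them in a cycle driven by ATP. J-domain proteins, whose human members carry DNAJ names, deliver clients and trigger ATP hydrolysis, while nucleotide exchange factors such as HSP110 and BAG proteins reset the cycle. HSP90 acts on later folding intermediates, HSP60 encloses proteins in mitochondria, small heat shock proteins hold clients without ATP, and HSF1 switches on many of these genes when proteins unfold.

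The promoter sequences below were chosen because they carry the elements through which the heat shock and endoplasmic reticulum (ER) stress responses are known to act, in genes at very different levels in these cells. They are RefSeq windows of GRCh38.p14, covering the 250 bases before a start site and written 5′ to 3′ on the gene's strand. Capitals mark the matched element.
HSPA8, chr11:123062137-123062386, minus strand: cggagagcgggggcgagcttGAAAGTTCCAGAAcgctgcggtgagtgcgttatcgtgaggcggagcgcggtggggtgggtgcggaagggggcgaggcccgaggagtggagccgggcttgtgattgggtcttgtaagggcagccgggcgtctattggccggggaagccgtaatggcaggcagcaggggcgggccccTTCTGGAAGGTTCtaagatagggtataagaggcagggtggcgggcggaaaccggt
HSP90AB1, chr6:44247693-44247942, plus strand: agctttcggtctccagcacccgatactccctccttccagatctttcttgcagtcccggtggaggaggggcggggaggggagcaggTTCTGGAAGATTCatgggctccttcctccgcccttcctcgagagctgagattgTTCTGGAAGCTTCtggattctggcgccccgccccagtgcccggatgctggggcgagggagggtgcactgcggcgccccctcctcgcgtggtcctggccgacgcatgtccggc
HSPA6, chr1:161524290-161524539, plus strand: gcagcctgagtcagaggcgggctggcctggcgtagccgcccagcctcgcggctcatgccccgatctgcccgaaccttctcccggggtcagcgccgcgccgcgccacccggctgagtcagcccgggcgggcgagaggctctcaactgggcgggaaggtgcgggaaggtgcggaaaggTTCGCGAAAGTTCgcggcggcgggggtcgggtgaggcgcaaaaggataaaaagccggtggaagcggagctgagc
HSPA1A, chr6:31815293-31815542, plus strand: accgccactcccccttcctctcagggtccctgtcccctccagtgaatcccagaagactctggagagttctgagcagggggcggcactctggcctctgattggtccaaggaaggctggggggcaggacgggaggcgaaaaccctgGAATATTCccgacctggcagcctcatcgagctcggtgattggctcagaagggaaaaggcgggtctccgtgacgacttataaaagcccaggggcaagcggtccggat
HSPB1, chr7:76302423-76302672, plus strand: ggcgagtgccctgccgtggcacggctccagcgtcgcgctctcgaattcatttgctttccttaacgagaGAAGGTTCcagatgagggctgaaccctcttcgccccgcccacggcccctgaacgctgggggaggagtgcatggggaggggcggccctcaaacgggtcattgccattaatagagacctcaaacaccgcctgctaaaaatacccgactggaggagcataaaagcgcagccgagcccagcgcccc
HSPA5, chr9:125241344-125241593, minus strand: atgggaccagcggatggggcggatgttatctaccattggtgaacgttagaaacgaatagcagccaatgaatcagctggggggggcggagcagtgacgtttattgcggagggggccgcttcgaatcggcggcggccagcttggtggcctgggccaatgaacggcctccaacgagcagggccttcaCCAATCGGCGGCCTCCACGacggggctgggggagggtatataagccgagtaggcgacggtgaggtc
HSP90B1, chr12:103930160-103930409, plus strand: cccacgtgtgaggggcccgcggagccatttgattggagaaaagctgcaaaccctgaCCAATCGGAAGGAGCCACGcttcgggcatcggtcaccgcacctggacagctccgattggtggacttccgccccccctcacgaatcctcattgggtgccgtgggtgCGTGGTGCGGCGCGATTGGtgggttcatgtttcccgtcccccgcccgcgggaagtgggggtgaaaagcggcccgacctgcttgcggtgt

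In the windows of HSPA8, HSP90AB1 and HSPA6 the capitals mark a heat shock element of 3 units, GAA, any 2 bases, TTC, any 2 bases and GAA, or its reverse complement TTC, any 2 bases, GAA, any 2 bases and TTC. HSPA8, the constitutive cytosolic HSP70, and HSP90AB1, the constitutive HSP90, had 2 such matches each, and HSPA6, a strictly stress-induced HSP70, had 1. In HSPA1A and HSPB1 the capitals mark the shorter element of 2 units, GAA, any 2 bases and TTC, or TTC, any 2 bases and GAA, which also lies inside every match of 3 units. In HSPA5, the ER HSP70 known as BiP, and in HSP90B1, the ER HSP90 known as GRP94, they mark the ER stress element, a CCAAT box, any 9 bases and CCACG. Every motif was searched on both strands. The windows of HSPA8, HSP90AB1 and HSP90B1 lie wholly inside the gene spans of GENCODE release 29, which include earlier starts, those of HSPA1A and HSPB1 overlap the spans by 79 and 129 bases, and those of HSPA6 and HSPA5 lie upstream of them.

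Of the 81 genes, 71 had a RefSeq promoter, with 93 windows. The element of 3 units was found in 6 of these windows (6.45%), those of DNAJB6, HSP90AA1, HSP90AB1, HSPA6, HSPA8 and HSPD1, against 0.441% of all 35116 promoter windows of the same length. The element of 2 units was found in 22.6% of the windows of the heat shock genes, against 11.6% of all windows. The ER stress element stood in 2 of the 93 windows (2.15%), against 0.074% of all. These letter matches are a description and were not tied to binding or to a level.

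The libraries held 39454167 to 45828772 counts, and the 81 genes took up 1.12 to 1.21% of them. The targeted gene, HDAC8, had 80, 89, 95 and 107 counts in replicates 1 to 4, or 2.18 ± 0.242 CPM (CPM, counts scaled to library size; SD, n = 4), and this total cannot check the edited exons. Mesenchymal markers were detected for 5 of 5 genes at 633 to 4701 CPM, while 0 of 17 epithelial, haematopoietic, endothelial, muscle and germ cell markers reached 1 CPM in all libraries. Replicate 2 was the highest in a graded spread of structural RNAs (RN7SL1, RN7SL2, RN7SK, RPPH1 and RMRP). These summed to 84874 CPM there and to 52796, 69026 and 59709 CPM in replicates 1, 3 and 4. Replicate 2 was also the lowest library for 4 of the 5 mesenchymal markers. The part these differences play in the results below was not tested.

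Most of the family was expressed. In bulk RNA, fewer cells with a message and less of it per cell cannot be told apart. In all 4 libraries, 64 of the 81 genes (79.0%) were detected, meaning at 1 CPM or more, against 58.7% of protein-coding rows and 21.4% of all rows. The median detected member had 57.8 CPM and 10.9 CPM per kilobase of joined GENCODE exons, against 27.6 CPM and 5.57 CPM per kilobase over all detected genes. HSPA7, HSPB2, HSPB3, HSPB7 and DNAJB3 had 0 counts in every library, and 3 counts over the 4 libraries, or 0.0176 CPM, is the upper limit that this allows, counting error only. HSPA7 and DNAJB3 are annotated as pseudogenes, and HSPB2, HSPB3 and HSPB7 are best known from muscle.

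Whether the 4 libraries differed beyond counting noise was tested by a chi-square test of homogeneity per gene, adjusted by the Benjamini-Hochberg method over the 16790 genes that averaged at least 10 counts. Of the 73 heat shock genes tested, 51 differed, against 59.2% of all genes tested. Among genes at 10 CPM or more the count was 45 of 54 (83.3%), against 77.7% of all such genes, a share near the background, and at 100 CPM or more it was 19 of 19, against 95.8%. The differences were small: the median SD of log2 CPM was 0.0888 for detected members and 0.105 for all detected genes. For all genes at 10 CPM or more, which are closer to the members in level, it was 0.0915, near the member value. Among the 51, the highest library reached 1.5 times the lowest in DNAJA4, HSPA2 and HSPB6 alone, all with few counts. None of the 54 members at 10 CPM or more did so, against 1.75% of all genes at that level that also passed the test.

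**Figure D1:**
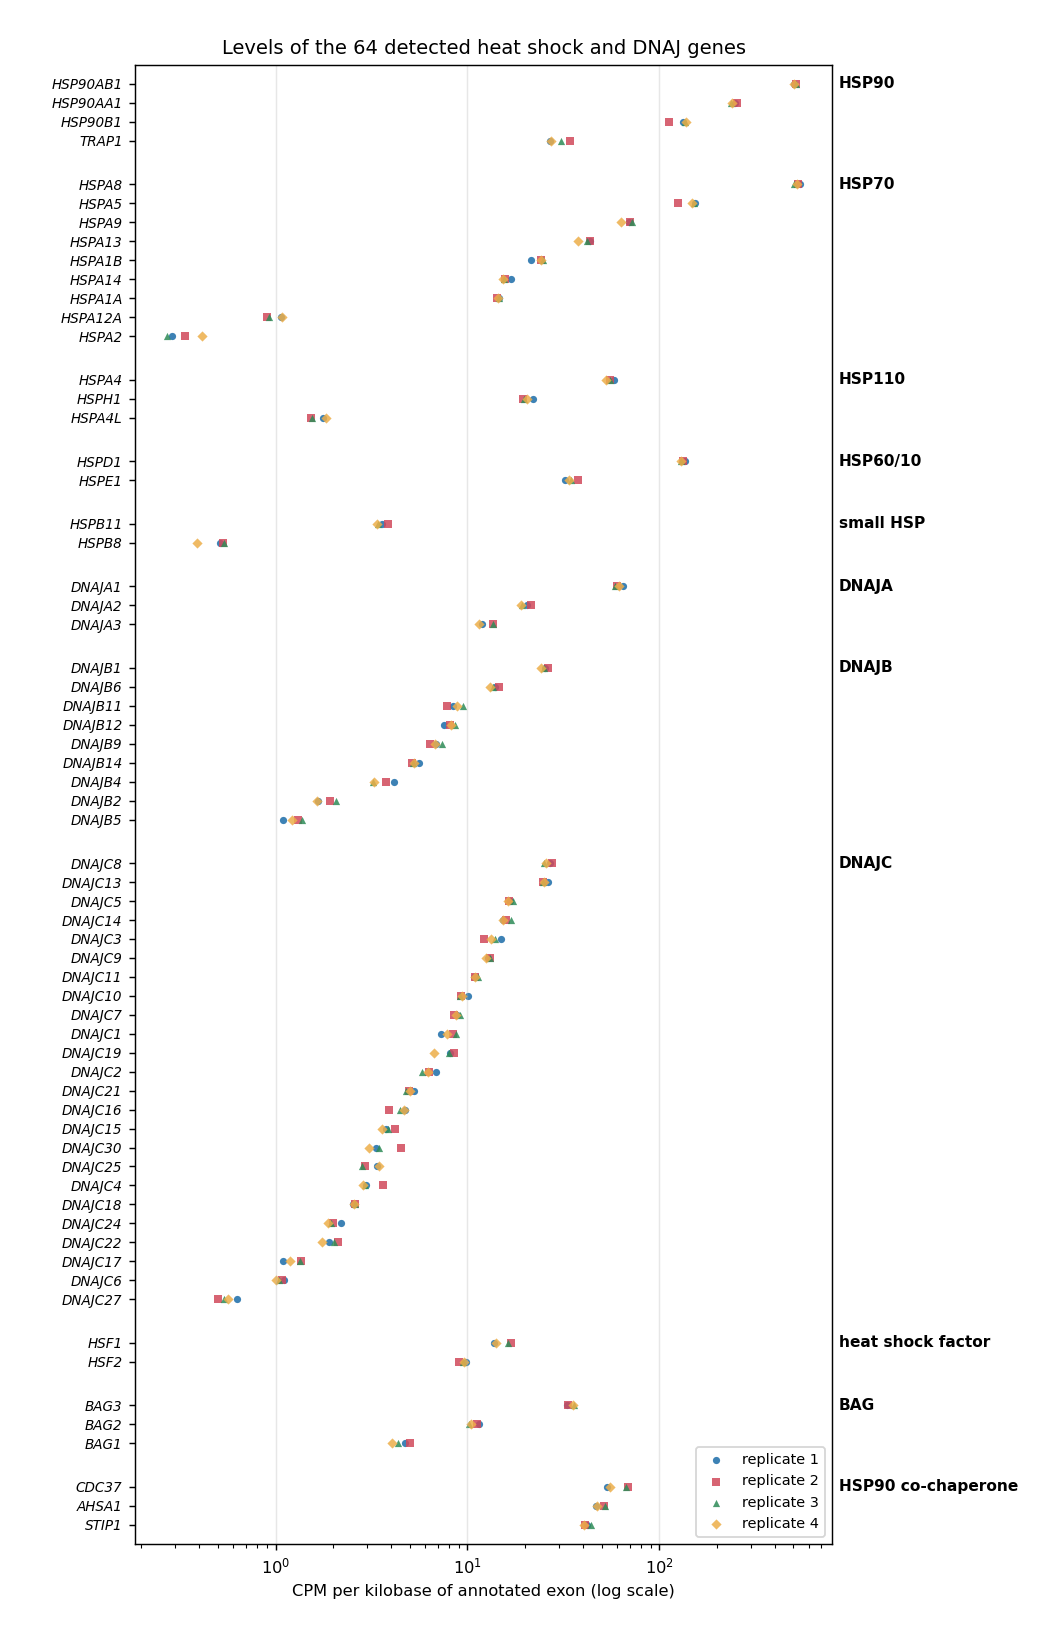
Level of the detected heat shock proteins and co-chaperones in CPM per kilobase of joined exons (log axis), by family, with a symbol for each of the 4 KDAC8 knockout libraries. HSPA8 at 524 and HSP90AB1 at 509 CPM per kilobase stand highest, and the points of one gene lie close together.

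The cytosolic HSP90 genes were among the most abundant messages. HSP90AB1 (chr6:44246166-44253888, plus strand), the constitutive form, had 1499, 1533, 1543 and 1492 CPM in replicates 1 to 4, or 509 ± 8.34 CPM per kilobase (SD, n = 4). HSP90AA1 (chr14:102080738-102139699, minus strand), the form most induced by stress, had 1308, 1334, 1238 and 1259 CPM, or 245 ± 8.44 CPM per kilobase. The level of HSP90AB1 per kilobase was 2.08-fold that of HSP90AA1, with a log2 ratio of 1.06 ± 0.06 and the same direction in 4 of 4 libraries. The size of this gap depends on the length used: with the longest transcript of each gene the log2 ratio was 0.63, and without length it was 0.24. Both genes differed between libraries (chi-square adjusted p = 1.49e-10 for HSP90AB1 and 3.44e-41 for HSP90AA1), although the highest library exceeded the lowest by little, at 1.03 times the lowest for HSP90AB1 and 1.08 times for HSP90AA1.

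The organelle forms were lower. HSP90B1, which folds secreted and membrane proteins in the ER, had 625, 529.9, 642 and 651 CPM, or 130.3 ± 11.9 CPM per kilobase, and replicate 2 was below the other 3 libraries (chi-square adjusted p = 1.67e-137). Its log2 level relative to HSP90AB1 was -1.97 ± 0.15. TRAP1, the mitochondrial HSP90, had 141, 179, 161 and 142 CPM, or 29.8 ± 3.46 CPM per kilobase, with replicate 2 highest (chi-square adjusted p = 4.97e-55). TRAP1 lay -4.10 ± 0.14 on the log2 scale from HSP90AB1 per kilobase, or -3.08 with the longest transcripts. The 2 organelle genes thus had their extremes in the same library, HSP90B1 its lowest and TRAP1 its highest.

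HSPA8 (chr11:123057489-123063230, minus strand), which also uncoats clathrin vesicles, led the HSP70 family. It had 2635, 2548, 2451 and 2532 CPM, or 524 ± 15.6 CPM per kilobase, and 99.6% of detected genes were lower per kilobase. Rows named as HSPA8 pseudogenes, 17 in number, summed to 1.62 CPM, or 0.0635% of its own level, so little of its signal was assigned to those copies. HSPA8 differed between libraries (chi-square adjusted p = 1.77e-60), the highest at 1.08 times the lowest.

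The heat-inducible HSP70 pair was much lower than HSPA8. HSPA1A had 36.3, 35.5, 36.1 and 35.7 CPM, or 14.5 ± 0.154 CPM per kilobase, and its libraries did not pass the test (chi-square adjusted p = 0.927). HSPA1B had 54.4, 60.98, 62.4 and 60.8 CPM, or 23.7 ± 1.42 CPM per kilobase, lowest in replicate 1 (chi-square adjusted p = 2.50e-05). These neighbouring genes on chromosome 6 (HSPA1A chr6:31815464-31817946 and HSPA1B chr6:31827735-31830255, both plus strand) encode almost the same protein. Both rows held counts that were not whole numbers in all 4 libraries, as RSEM gives where it shares reads between copies, so the split between them is uncertain. Counts that were not whole in any of the 4 libraries were found for 16 members, HSP90AA1, TRAP1, HSPE1, HSPA2, HSPA4L, BAG2, DNAJC7, DNAJC10, DNAJC11 and DNAJC14 among them, and how far this moved their levels was not tested. HSPA1A and HSPA1B together summed to 90.7, 96.4, 98.5 and 96.5 CPM, or 95.5 ± 3.36 CPM. HSPA8 per kilobase exceeded the HSPA1A and HSPA1B sum by 3.78 ± 0.09 on the log2 scale, 13.8-fold, and by 4.76 with the longest transcripts. HSPA6 (chr1:161524540-161526910, plus strand), whose promoter held a heat shock element of 3 units, had only 16, 23, 12 and 17 counts, or 0.402 ± 0.115 CPM, with exact 95% Poisson intervals of 6.20 to 21.0 counts in the lowest library and 14.6 to 34.5 in the highest. In these cells genes with the same promoter element therefore ranged from below 1 CPM for HSPA6 to 2542 CPM for HSPA8.

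The organelle HSP70 messages were abundant. HSPA5 (chr9:125234853-125241330, minus strand), the main ER chaperone, had 598, 488, 596 and 579 CPM, or 145 ± 13.4 CPM per kilobase, lowest in replicate 2 (chi-square adjusted p = 9.27e-131). HSPA9, the mitochondrial HSP70 known as mortalin, had 576, 584, 594 and 518 CPM, or 68.8 ± 4.12 CPM per kilobase, lowest in replicate 4 (chi-square adjusted p = 9.64e-55). HSPA13, an HSP70-like protein of the ER known as STCH, had 182, 183, 176 and 158 CPM, or 41.7 ± 2.86 CPM per kilobase (chi-square adjusted p = 3.53e-21). Relative to HSPA8 per kilobase, the log2 level was -1.86 ± 0.15 for HSPA5 and -2.93 ± 0.10 for HSPA9. HSPA5 moved to -2.84 and HSPA9 to -3.10 with the longest transcripts, so both stayed below HSPA8.

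HSPA14, a ribosome-associated form, had 44.6, 41.3, 41.2 and 40.5 CPM, or 15.9 ± 0.701 CPM per kilobase (chi-square adjusted p = 0.0318), a level per kilobase close to that of HSPA1A. The remaining HSP70 genes were low. HSPA12A, a distant relative, had 12.7, 10.6, 10.9 and 12.8 CPM (chi-square adjusted p = 0.00544). HSPA2, best known from testis, had 1.66, 1.95, 1.57 and 2.39 CPM (chi-square adjusted p = 0.0438) and was the detected member with the largest SD of log2 CPM, 0.27. HSPA1L, also known from testis, averaged 0.937 ± 0.198 CPM, and HSPA12B averaged 0.577 ± 0.0921 CPM. In all, 9 of 13 HSP70 genes were detected, against 58.7% of protein-coding rows. Of 12 tested, 8 differed between libraries, against 59.2% of all genes tested and 77.7% of those at 10 CPM or more.

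The HSP110 exchange factors were led by HSPA4. It had 298, 284, 284 and 272 CPM, or 55.2 ± 2.08 CPM per kilobase (chi-square adjusted p = 4.51e-10), and HSPH1 had 185, 163, 166 and 172 CPM, or 20.4 ± 1.19 CPM per kilobase (chi-square adjusted p = 1.73e-14). HSPA4L had 20.7, 17.8, 18.04 and 21.3 CPM, or 1.67 ± 0.153 CPM per kilobase (chi-square adjusted p = 3.20e-04). HSPA4 exceeded HSPH1 per kilobase in 4 of 4 libraries, by 1.43 ± 0.07 on the log2 scale, and by 0.84 with the longest transcripts. All 3 genes were detected and all 3 differed between libraries. The share that differed was 77.7% of all genes at 10 CPM or more and 95.8% at 100 CPM or more.

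The mitochondrial chaperonin was represented by its ring protein and its lid. HSPE1, the HSP10 lid, had 64.01, 74.7, 68.7 and 67.1 CPM, or 34.7 ± 2.27 CPM per kilobase (chi-square adjusted p = 2.48e-07). HSPD1, the ring-forming HSP60, had 579.9, 561, 548 and 550.2 CPM, or 132 ± 3.43 CPM per kilobase (chi-square adjusted p = 1.62e-09). The genes lie head to head on chromosome 2 and overlap on opposite strands in the annotation (HSPD1 chr2:197486581-197516737, minus, and HSPE1 chr2:197499994-197503457, plus), and whether the counting used strand is not given in the sources used here. HSPE1 relative to HSPD1 was -1.93 ± 0.11 per kilobase on the log2 scale and -0.54 per coding length. HSPE1 was lowest and HSPD1 highest in replicate 1.

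Small heat shock genes were at low levels. Of 8 HSPB genes, 2 were detected. HSPB11, an intraflagellar transport protein known as IFT25 that carries an HSPB symbol, had 11.6, 12.4, 11.1 and 10.95 CPM (chi-square adjusted p = 0.227), and it made up 69.2% of the summed small heat shock level per kilobase. HSPB8, a partner of BAG3 in selective autophagy, had 1.459, 1.52, 1.55 and 1.11 CPM (chi-square adjusted p = 0.363). HSPB1, the heat-inducible HSP27 that many cultured cells make in quantity, had only 15, 23, 32 and 20 counts, or 0.371, 0.546, 0.706 and 0.473 CPM, with exact 95% Poisson intervals of 8.40 to 24.7 counts in replicate 1 and 21.9 to 45.2 in replicate 3. Its libraries did not pass the test (chi-square adjusted p = 0.238), and rows named as its pseudogenes summed to 0.0176 CPM, or 3.36% of its level. HSPB6, known from muscle, had 1.39, 0.594, 1.02 and 1.09 CPM (chi-square adjusted p = 0.00953), with replicate 2 below the other 3. HSPB9, known from testis, averaged 0.351 ± 0.0603 CPM. The alpha-crystallin genes, which belong to the same family without matching the naming rule, stood at 0.0115 CPM for CRYAB and 0 counts for CRYAA.

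Summed over members, the HSP90 genes held 914 ± 6.14 CPM per kilobase (SD, n = 4), the 43 J-domain genes 363 ± 6.65, the 3 HSP110 genes 77.3 ± 2.98, the small heat shock genes 5.15 ± 0.210 and the 13 HSP70 genes 835 ± 20.1. HSP90AB1 made up 55.7% of the HSP90 sum and HSPA8 made up 62.7% of the HSP70 sum. The log2 ratio of the HSP90 sum to the HSP70 sum was 0.13 ± 0.04, but it turned to -0.22 with the longest transcripts and to -0.17 without length, so the order of these 2 sums is not settled. The J-domain sum was 2.30-fold below the HSP70 sum, a log2 ratio of -1.20 ± 0.03, and without HSPA8 the ratio turned to 0.22. The small heat shock sum was 162-fold below the HSP70 sum, with a log2 ratio of -7.34 ± 0.06, and the HSP110 sum was 10.8-fold below it.

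**Figure D2:**
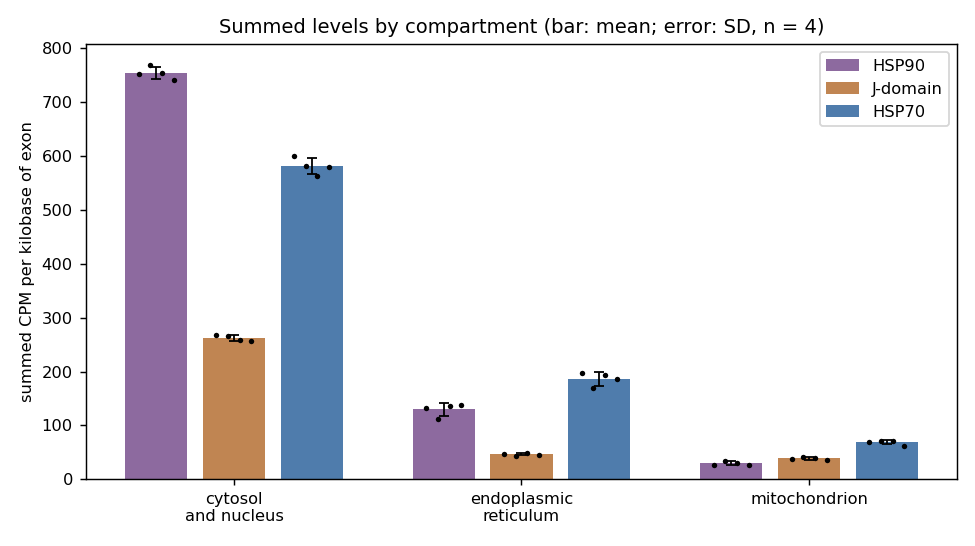
Summed level of the HSP90, J-domain and HSP70 genes of each compartment in CPM per kilobase of joined exons, as the mean of the 4 KDAC8 knockout libraries (bars, axis from 0) with the SD (error bars) and a dot per library. In the cytosol and nucleus HSP90 stood at 754 ± 11.4 and J-domain genes at 262 ± 5.49 beside HSP70 at 580.1 ± 14.98.

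By compartment, the J-domain to HSP70 log2 ratio was -1.14 ± 0.02 in the cytosol and nucleus, -2.0 ± 0.05 in the ER and -0.82 ± 0.05 in mitochondria. Cytosolic HSP70 rested on HSPA8, which held 90.4% of 580.1 ± 14.98 CPM per kilobase, and without it the ratio there turned to 2.23. In the ER, the 5 J-domain genes summed to 46.5 ± 1.95 CPM per kilobase, and HSPA5 and HSPA13 to 186 ± 12.7. In mitochondria, the 5 J-domain genes summed to 38.9 ± 2.57 and HSPA9 stood at 68.8 CPM per kilobase. Without length the ratio was -0.99 in the ER and -1.41 in mitochondria, which turns round the order of these 2 compartments.

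The DNAJA genes encode the J-domain proteins closest to bacterial DnaJ. DNAJA1, a general HSPA8 partner, had 177, 164, 159.9 and 169 CPM, or 61.3 ± 2.69 CPM per kilobase (chi-square adjusted p = 3.56e-08). DNAJA2 had 103, 109, 97.5 and 95.9 CPM, or 20.01 ± 1.15 CPM per kilobase (chi-square adjusted p = 1.49e-08), and DNAJA3, the mitochondrial form known as TID1, had 84.5, 95.7, 95.97 and 81.3 CPM, or 12.6 ± 1.07 CPM per kilobase (chi-square adjusted p = 1.09e-16). DNAJA2 lay -1.61 ± 0.10 from DNAJA1 per kilobase on the log2 scale, and -0.72 without length. DNAJA4 was the 1 DNAJA gene of 4 that was not detected, with 5, 4, 19 and 15 counts, or 0.124, 0.0950, 0.419 and 0.355 CPM, lower in replicates 1 and 2 than in replicates 3 and 4 (chi-square adjusted p = 0.00769). Its span overlaps WDR61 on the opposite strand, a row at 35.2 CPM, so its reads cannot be assigned to it with confidence.

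Among DNAJB genes, 9 of 13 were detected, against 58.7% of protein-coding rows. Of 10 tested, 8 differed between libraries, against 59.2% of all genes tested and 77.7% of those at 10 CPM or more. DNAJB1, the heat-inducible HSP40, had 93.2, 96.5, 91.6 and 88.5 CPM, or 25.2 ± 0.904 CPM per kilobase (chi-square adjusted p = 0.00395). Its span overlaps TECR on the opposite strand, a row at 55.3 CPM. DNAJA1 exceeded DNAJB1 by 1.28 ± 0.08 per kilobase on the log2 scale. DNAJB6, a suppressor of protein aggregation, had 208, 219, 203 and 197 CPM, or 13.8 ± 0.630 CPM per kilobase (chi-square adjusted p = 5.43e-11). DNAJB6 relative to DNAJB1 was -0.87 ± 0.02 on the log2 scale per kilobase of joined exons, but 1.16 without length and 1.19 per coding length, so which of them is higher depends on the length used.

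DNAJB12 and DNAJB14, which act in quality control at the ER membrane, had 42.5, 45.9, 48.5 and 46.5 CPM for DNAJB12 (chi-square adjusted p = 0.00142) and 73.3, 67.2, 67.7 and 68.6 CPM for DNAJB14 (chi-square adjusted p = 0.00598). DNAJB11, the ER protein ERdj3, had 48.01, 44.97, 54.3 and 50.4 CPM (chi-square adjusted p = 3.59e-08), and DNAJB9, the ER protein ERdj4, had 19.4, 18.02, 20.95 and 19.3 CPM (chi-square adjusted p = 0.0369). Replicate 2 was lowest for both DNAJB11 and DNAJB9, and DNAJB9 overlaps THAP5, a row at 38.9 CPM, on the opposite strand. DNAJB4 had 15.7, 14.2, 12.2 and 12.3 CPM (chi-square adjusted p = 2.76e-05), and DNAJB2, a neuronal form linked to ubiquitinated clients, had 9.75, 11.4, 12.2 and 9.65 CPM (chi-square adjusted p = 7.48e-04). DNAJB5 had 6.46, 7.74, 8.10 and 7.19 CPM and did not pass the test (chi-square adjusted p = 0.0536). DNAJB7 averaged 0.679 ± 0.113 CPM and lies inside XPNPEP3 on the opposite strand, so its reads cannot be assigned to it with confidence, and DNAJB13 and DNAJB8, both known from testis, averaged 0.0463 and 0.0174 CPM.

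The DNAJC genes share little beyond the J domain and serve many specialised tasks. Of 26, 24 were detected, at 0.559 to 26.3 CPM per kilobase, and 14 of 25 tested differed between libraries, a share near the 59.2% of all genes tested. DNAJC8, which is linked to pre-mRNA splicing, was highest per kilobase, with 77.7, 79.7, 72.2 and 73.97 CPM, or 26.3 CPM per kilobase (chi-square adjusted p = 4.76e-04). DNAJC13, an endosomal protein known as RME-8, had 252, 238, 238 and 239.9 CPM, or 25.2 CPM per kilobase (chi-square adjusted p = 1.86e-04). DNAJC5, the cysteine string protein of secretory vesicles, had 88.03, 87.3, 90.9 and 85.6 CPM, or 16.6 CPM per kilobase (chi-square adjusted p = 0.0878), and its libraries did not pass the test. DNAJC14, an ER-associated protein that binds dopamine receptors, had 64.5, 66.6, 70.4 and 64.6 CPM, or 15.9 CPM per kilobase (chi-square adjusted p = 0.00464).

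ER members of the group included DNAJC3, known as p58IPK, with 83.4, 68.1, 77.4 and 73.9 CPM, or 13.5 CPM per kilobase (chi-square adjusted p = 1.37e-13). DNAJC10, the disulfide reductase ERdj5, had 221, 202, 199 and 204 CPM, or 9.45 CPM per kilobase (chi-square adjusted p = 2.92e-11), and DNAJC1, the ER membrane protein ERdj1, had 18.3, 21.1, 21.8 and 19.6 CPM, or 8.08 CPM per kilobase (chi-square adjusted p = 0.00352). Replicate 2 was lowest for DNAJC3 but not for DNAJC10 or DNAJC1. DNAJC9, a histone chaperone, had 50.5, 52.2, 51.97 and 49.3 CPM (chi-square adjusted p = 0.27), and DNAJC11, which associates with the mitochondrial contact site complex, had 54.8, 55.9, 57.7 and 55.7 CPM (chi-square adjusted p = 0.388). Neither DNAJC9 nor DNAJC11 passed the test, and DNAJC9 overlaps MRPS16, a row at 129.5 CPM, on the same strand. DNAJC7, which carries repeats that bind HSP70 and HSP90, had 82.3, 79.8, 85.7 and 81.4 CPM (chi-square adjusted p = 0.0348). On the opposite strand DNAJC7 overlaps CNP, a row at 65.2 CPM, and NKIRAS2, a row at 32.7 CPM.

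The most variable DNAJC gene that was detected was DNAJC30, a mitochondrial protein, with 8.26, 11.1, 8.57 and 7.66 CPM (chi-square adjusted p = 1.16e-06). Its highest library, replicate 2, was 1.45 times its lowest, and its span overlaps WBSCR22 on the opposite strand, a row at 57.5 CPM. DNAJC18 was the steadiest, with 16.7 ± 0.190 CPM and a range of 1.02 times (chi-square adjusted p = 0.968). DNAJC12 and DNAJC28 were not detected, at 0.322 and 0.0941 CPM.

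**Figure D3:**
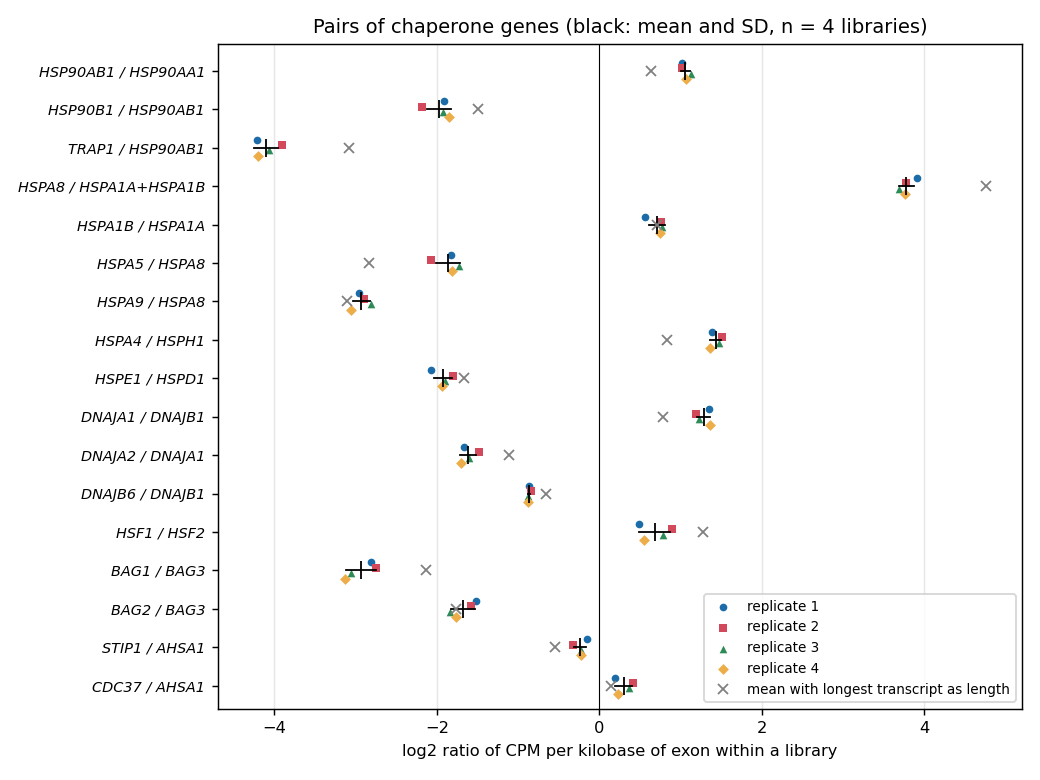
Log2 ratio of CPM per kilobase for the 17 fixed pairs of genes (first gene over second), with a symbol for each of the 4 knockout libraries, the mean and SD in black and a grey cross for the mean with the longest transcript as length. Every pair keeps its sign in all 4 libraries, from -4.10 for TRAP1 over HSP90AB1 to 3.78 for HSPA8 over the HSPA1A and HSPA1B sum.

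The heat shock factors were both expressed. HSF1, the main heat-activated factor, had 73.1, 89.2, 86.6 and 74.6 CPM, or 15.2 ± 1.55 CPM per kilobase, higher in replicates 2 and 3 than in replicates 1 and 4 (chi-square adjusted p = 1.89e-21). HSF2, which can pair with it, had 26.4, 24.4, 25.7 and 25.9 CPM, or 9.47 ± 0.317 CPM per kilobase, and did not pass the test (chi-square adjusted p = 0.375). HSF1 exceeded HSF2 by 0.68 ± 0.19 per kilobase on the log2 scale in 4 of 4 libraries, and by 1.27 with the longest transcripts. Outside the naming rule, HSF4 averaged 1.78 ± 0.427 CPM and HSFX1 0.532 ± 0.186 CPM.

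BAG2, which inhibits the ubiquitin ligase CHIP, had 76.8, 74.6, 67.4 and 69.4 CPM, or 10.8 ± 0.656 CPM per kilobase (chi-square adjusted p = 9.01e-07), and BAG1, which links HSP70 to the proteasome, had 33.3, 35.4, 30.6 and 28.6 CPM, or 4.52 ± 0.419 CPM per kilobase (chi-square adjusted p = 5.57e-07). BAG3, an exchange factor that also directs clients to autophagy, had 90.6, 92.3, 99.1 and 97.5 CPM, or 34.5 ± 1.48 CPM per kilobase (chi-square adjusted p = 1.71e-04). Relative to BAG3 per kilobase, the log2 level was -1.67 ± 0.15 for BAG2 and -2.94 ± 0.19 for BAG1. Per coding length BAG2 turned to 1.05 and BAG1 was at -0.84, so the order of BAG2 and BAG3 depends on the length used.

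Among HSP90 co-chaperones, STIP1, the HOP protein that passes clients between HSP70 and HSP90, had 195, 191, 206 and 189 CPM, or 41.9 ± 1.62 CPM per kilobase (chi-square adjusted p = 1.05e-07). AHSA1, which activates the HSP90 ATPase, had 138, 152, 153 and 140.0 CPM, or 49.4 ± 2.69 CPM per kilobase (chi-square adjusted p = 4.93e-11). CDC37, which loads protein kinases onto HSP90, had 163, 208, 204 and 169 CPM, or 61.2 ± 7.69 CPM per kilobase, higher in replicates 2 and 3 than in replicates 1 and 4 (chi-square adjusted p = 2.06e-78). STIP1 relative to AHSA1 was -0.24 ± 0.07 on the log2 scale per kilobase and 0.42 without length, so their order turned, and CDC37 relative to AHSA1 was 0.30 ± 0.10. Each of the 17 pairs had an exact two-sided sign-flip permutation p of 0.13 (1 in 8), before and after Benjamini-Hochberg adjustment, which is the smallest that 4 libraries allow.

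**Figure D4:**
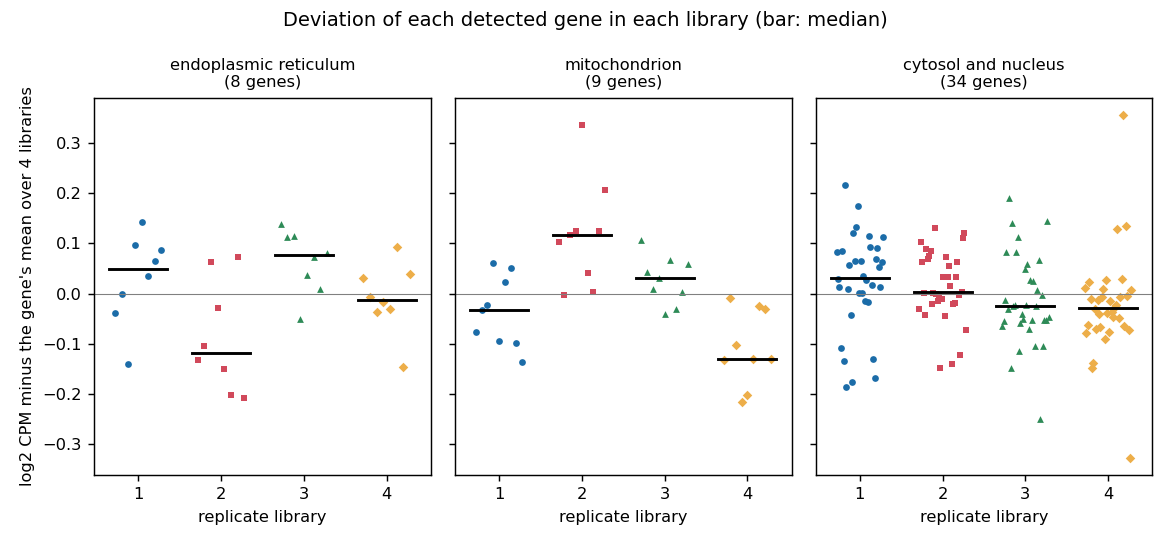
Deviation of each detected gene from its own mean over libraries (log2 CPM) in the 4 knockout libraries, with a panel for each compartment, a symbol per gene and a bar at the median. The median of the 8 ER genes is -0.12 in replicate 2, where that of the 9 mitochondrial genes is 0.12.

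The libraries were then compared by compartment. All 8 ER members (HSPA5, HSP90B1, HSPA13, DNAJB9, DNAJB11, DNAJC1, DNAJC3 and DNAJC10) differed between libraries, and the same 8 were listed here as unfolded protein response genes. Their median was 125 CPM. The share that differed was 77.7% of all genes at 10 CPM or more and 95.8% at 100 CPM or more. Replicate 2 was lowest for 5 of the 8, against 25.1% of all genes at 10 CPM or more that differed. HSPA13, DNAJC1 and DNAJC10 were lowest in replicates 4, 1 and 3. DNAJB12, DNAJB14 and DNAJC14, whose products sit at the ER membrane, were counted with the cytosol and nucleus, and DNAJB14 was lowest in replicate 2 but DNAJB12 and DNAJC14 in replicate 1. The median log2 deviation of the 8 genes was 0.05, -0.12, 0.08 and -0.01 in replicates 1 to 4. Without replicate 2, 7 of the 8 still differed among the other libraries. Replicate 2 also had the highest sum of structural RNAs, 84874 CPM, and its part in these values was not tested. CCAAT boxes stood in 6 of the 7 promoter windows of this list (85.7%), against 32.0% of all windows. The genes were listed for their known ER stress response, whose element holds a CCAAT box, so this share is not an independent result. It was not tied to the levels in any library.

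Of the ER folding factors outside the naming rule, 10 of 10 differed. Their median was 236 CPM, and 95.8% of all genes at 100 CPM or more differed. At 10 CPM or more, a level that 9 of the 10 reached, the share of all genes was 77.7%. Replicate 2 was lowest for 7 of the 10, against 25.1% of all genes at 10 CPM or more that differed. CANX, the membrane-bound lectin chaperone calnexin, had 675, 561, 642 and 664 CPM, and CALR, its soluble relative calreticulin, had 539, 496, 601 and 578 CPM. PDIA3, a disulfide isomerase that works with both, had 274, 222, 267 and 271 CPM. Replicate 2 was the lowest library for CANX, CALR and PDIA3, but not for SDF2L1, the most variable gene of the list, with 6.58, 8.62, 8.34 and 7.97 CPM. Of the 9 mitochondrial members (TRAP1, HSPA9, HSPD1, HSPE1, DNAJA3, DNAJC11, DNAJC15, DNAJC19 and DNAJC30), 8 differed, against 59.2% of all genes tested and 77.7% of those at 10 CPM or more. Replicate 4 was lowest for 5 of them, against 37.3% of all genes at 10 CPM or more that differed, and replicate 2 was lowest for none, against 25.1%. Their median log2 deviation was -0.03, 0.12, 0.03 and -0.13. This grouping of libraries was noticed after the values were seen, and the difference between the compartments was not tested.

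The GC content and length of transcripts moved with the libraries. Across the 64 detected members, Spearman's rho between the GC content of the longest transcript and the deviation was -0.70 in replicate 1, 0.42 in replicate 2, 0.45 in replicate 3 and -0.19 in replicate 4, and across 9466 genes at 10 CPM or more it was -0.76, 0.29, 0.62 and -0.05. For the length of the longest transcript the rho was 0.28, -0.33, -0.12 and 0.22 across the members and 0.35, -0.57, -0.25 and 0.51 across all genes at that level. Genes are not independent replicates, and every gene of a library shares its preparation and depth. HSF1, CDC37 and TRAP1, with 64.7%, 60.0% and 56.0% GC, were lowest in replicate 1. Other GC-rich members were split. HSPA1B with 58.7%, BAG3 with 56.9% and DNAJB12 with 56.5% were also lowest in replicate 1. DNAJB2 with 59.1%, DNAJC4 with 58.4% and DNAJC5 with 57.7%, which did not pass the test, were lowest in replicate 4. HSPA1A with 59.7%, whose libraries did not pass the test, was highest in replicate 1. HSPA5 with 46.0% and HSP90B1 with 41.2%, which were lowest in replicate 2, lay near or below the median of 45.8% for the detected members. The ER members DNAJB11 with 37.8%, DNAJB9 with 40.4% and DNAJC3 with 39.9%, also lowest in replicate 2, lay below this median. HSPA13, an ER member with 34.9%, was highest in replicate 2. The ER members DNAJC10 with 37.4% and DNAJC1 with 51.4% were lowest in replicates 3 and 1. The part of GC content in these differences was not tested.

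**Figure D5:**
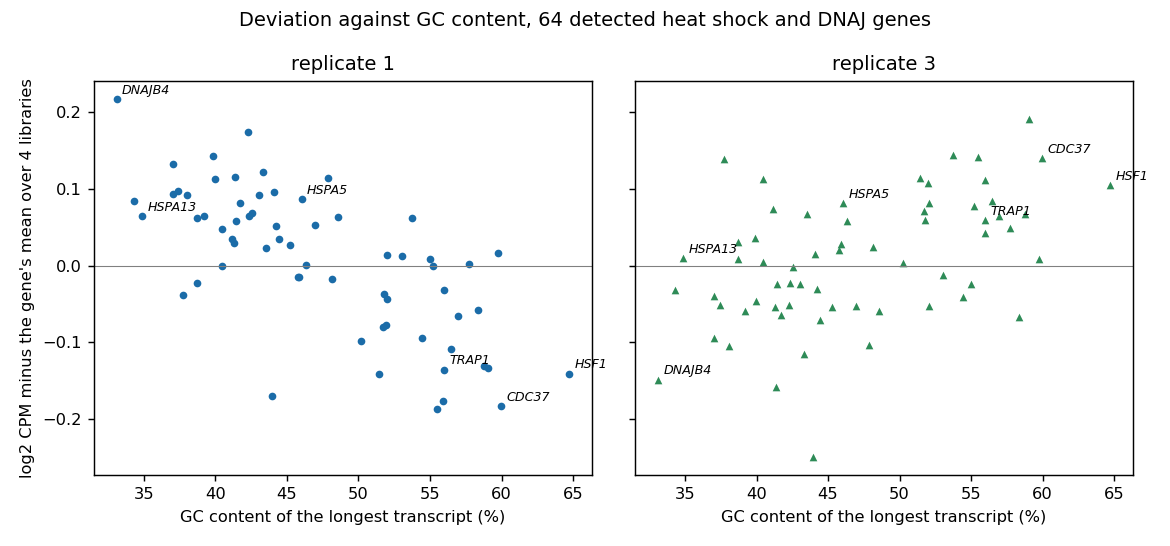
Deviation of each detected gene from its mean over the 4 knockout libraries (log2 CPM) against the GC content of its longest transcript (percent). The panels show replicates 1 and 3. The slope falls in replicate 1 (rho -0.70) and climbs in replicate 3 (rho 0.45).

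Of 19 members known as genes of the heat shock response, HSPA8 and HSP90AB1 with their high constitutive levels among them, 16 were detected, at a median of 34.6 CPM per kilobase, and 14 of 18 tested differed between libraries, against 59.2% of all genes tested and 77.7% of those at 10 CPM or more. Ranges among the detected genes of the list reached 1.39 times, in HSPB8, which did not pass the test. The element of 3 units stood in 5 of the 29 promoter windows of this list (17.2%), against 0.441% of all windows. The genes were listed for their known heat shock response, so this share is not an independent result. The list thus spanned HSPA8 and HSP90AB1 near the top of all genes and HSPA6 and HSPB1 below 1 CPM.

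Other folding genes outside the naming rule were mostly present, with 57 of 63 detected, against 58.7% of protein-coding rows, and 52 of 59 tested that differed, against 59.2% of all genes tested and 77.7% of those at 10 CPM or more. In the TRiC chaperonin, which folds actin and tubulin, 8 of 9 genes were detected, and those 8 differed, against 95.8% of all genes at 100 CPM or more. All 8 were lowest in replicate 4, the lowest library of 37.3% of all genes at 10 CPM or more that differed. CCT5 averaged 676 ± 41.7 CPM and CCT7 415 ± 38.7 CPM, while CCT6B, a testis form, averaged 0.378 CPM. Prefoldin, which hands actin and tubulin to TRiC, had 6 of 6 genes detected and differing, with PFDN5 at 103 ± 9.23 CPM, PFDN1 at 54.5 ± 3.99 CPM and the most variable, PFDN6, at 44.1 ± 6.31 CPM, and 5 of them were lowest in replicate 4. All 16 further HSP90 co-chaperones were detected and 14 differed, led by PTGES3, the p23 protein, at 359 ± 21.2 CPM and ST13, an HSP70-interacting protein, at 187 ± 9.82 CPM, and the most variable was AHSA2P at 23.8 ± 3.36 CPM. Exchange factors outside the rule were all detected (8 of 8, of which 7 differed), with BAG6 at 308 ± 25.7 CPM and HYOU1, the ER form of HSP110, at 211 ± 13.2 CPM, and HSPBP1 was the most variable at 65.1 ± 9.24 CPM. LONP1, a mitochondrial protease, averaged 252 ± 30.4 CPM, CLPX, which unfolds clients for the protease CLPP, averaged 77.3 ± 4.12 CPM, and CLPP averaged 44.3 ± 5.57 CPM, and 3 of the 4 genes of its list differed. SEC63, a J-domain protein outside the naming rule that recruits HSPA5 to the ER translocon, averaged 124 ± 11.2 CPM and was lowest in replicate 2.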

How the data were processed

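Gene expression was measured by RNA-seq of ribosomal RNA-depleted total RNA in 4 KDAC8 knockout libraries, taken as 1 group from the labels. The authors deposited expected counts per gene; RSEM 1.3.3, Bowtie2 2.5.4, Trimmomatic 0.39 and DESeq2 1.46.0 are listed, with build GRCh38, per the submitters' processing notes. Roles, settings, annotation release, strand use and filters are not given here. The expected counts were rounded to whole numbers, and 0 columns were left unused. CPM was taken over TMM effective library sizes (edgeR 4.0.16), and CPM per kilobase over joined exons of GENCODE release 29. Library differences were tested by a chi-square test with 3 degrees of freedom, adjusted over 16790 genes and called at 0.05. Because this test asks only for more than counting noise, small differences pass in abundant genes. It was checked on simulated data. Members, lists and compartments were chosen with earlier results of these data known. Any gene matched by name could be named, with values in every library for the main families, the 10 DNAJC genes highest per kilobase and the 5 most variable detected members; each pathway list gave its 2 highest genes and its most variable, except 1 gene that is not reported here. PDIA3 and CCT6B were named after their values were seen. Alternatives were DESeq2 1.42.0 size factors, total counts, TMM over protein-coding rows, other filters and lengths, and leaving out each library. Counts limit the precision, and PCR duplicates are not independent molecules, so intervals and limits cover counting error only.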

Additional observations from a re-analysis of the deposited data

Results flagged for a closer look

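Each of the 64 detected members was screened for a library set apart from the other 3, and chance flags about 1 in 20 such groups. The screen flagged 2 of the 64, which is no more than that share. DNAJC13, the endosomal protein, was flagged in replicate 1 at 251.8 CPM, where its gap to the nearest library was 0.870 of its whole range. That range was small, the highest library at 1.06 times the lowest. DNAJC4 was flagged in replicate 2 at 10.2 CPM, with a gap of 0.858 of its range, and its span overlaps NUDT22 on the same strand.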

How the results depend on the processing

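The number of members that differed between libraries was 51, and it was 53 with DESeq2 size factors, 52 with total counts, 53 with TMM over protein-coding rows, 50 with a mean of 1 count or more and 43 to 48 when each library was left out. Only 3 also had a range of 1.5 times. The number detected was 64 under each normalization, 64 to 65 when each library was left out, 68 at 0.5 CPM and 60 at 1 CPM per kilobase. Ratios between genes depended on length. DNAJB6 over DNAJB1 turned to 1.16 without length and 1.19 with the longest coding sequence, BAG2 over BAG3 turned to 1.05 with the longest coding sequence, and STIP1 over AHSA1 turned to 0.42 without length; the gene's length itself makes these turns. With the longest transcript, without length and without HSPA8, in that order, the summed log2 ratio to HSP70 was -1.40, -0.92 and 0.22 for J-domain genes, -0.22, -0.17 and 1.56 for HSP90, -6.60, -8.08 and -5.92 for small heat shock genes, and -3.91, -3.08 and -2.01 for HSP110. For J-domain genes over HSP70 in the cytosol and nucleus it was -1.49, -0.90 and 2.23. In the ER it was -1.84 with the longest transcript and -0.99 without length, and in mitochondria -1.41 without length. Because the ratios are taken within a library, normalization cannot move them. The coding sequences came from GENCODE, a choice made after seeing the data. No paired analysis was possible because the labels give 1 group, so no groups share replicate numbers. Depth limits genes below 1 CPM, where a library holds few counts.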
